A study of Mus musculus with 3 samples.

Results

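Potassium channel genes were described in 3 RNA-seq libraries of C2C12 cells, mouse myoblasts kept as an immortal line, which fuse into multinucleate myotubes on differentiation. The genes were chosen by name, as all genes with an mRNA row whose symbol is Kcn followed by letters and a number. The naming rule uses no measured value, but it was set with earlier results of these data known. The rule gave 92 genes of the 22173 genes with an mRNA row, of which 18 had at least 20 counts in 1 library. Values are given for 16 of these by name, while counts and medians over the list cover all 18. The lowest of these, Kcnk13, reached 20 counts, and the highest gene left out, Kcnc1, reached 12.

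The libraries came from cells with a Drp1 knockout that expressed FLAG-Drp1 (rescue), from Drp1 knockout cells (KO) and from wild-type cells (WT). Drp1, the protein of the gene Dnm1l, is the GTPase that divides mitochondria. Every library was taken 4 days into myogenic differentiation, and the FLAG-tagged Drp1 was expressed transiently. How the knockout was made, and whether the KO cells were 1 clone, the labels do not say. KO against WT asks what differs in cells with the Drp1 knockout, and rescue against KO what differs once Drp1 is expressed again. There was 1 library per group, so no difference below has a replicate check, no p-value was computed, and each statement describes these libraries rather than the conditions.

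Potassium channels let potassium ions leave or enter a cell down their electrochemical gradient and set the resting membrane potential. Voltage-gated channels open on depolarisation, calcium-activated channels open when internal calcium rises, and inward rectifiers and tandem-pore leak channels conduct near rest. In human myoblasts the membrane potential becomes more negative before fusion, through an ether-a-go-go channel (the product of the human gene KCNH1) and the inward rectifier encoded by KCNJ2. In adult muscle fibres, inward rectifier and ATP-sensitive potassium channels carry much of the potassium current at rest and in fatigue.

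Gene counts summed to 13925296 in rescue, 13790417 in KO and 13894114 in WT. Dnm1l had 1481 counts in rescue, 1284 in KO and 1823 in WT, so its RNA was present in the library labelled as a knockout. Counts over the whole transcript do not show whether the protein was lost. All 7 listed muscle markers were detected, with summed counts of 244287 in rescue, 198336 in KO and 192650 in WT. They did not move together: Acta1, Myh3 and Myog had more counts in KO than in WT, Des, Tnnt3 and Mymk fewer, and Ckm, the one past 2-fold, had 3527 counts in rescue, 1424 in KO and 4406 in WT. Of 6 neuron markers, Snap25 and Rbfox3 were at 0 in every library, and the summed counts of 586 in rescue, 457 in KO and 1070 in WT came mostly from Tubb3. Of 5 fibroblast markers, Thy1 had at most 1 count and Lum at most 9. The fibroblast sum was 18201 counts in rescue, 20791 in KO and 10541 in WT, with Col1a1 at 16217 counts in rescue, 18763 in KO and 5243 in WT and Dcn at 1792 in rescue, 1787 in KO and 5177 in WT. Of 4 immune markers, Ptprc, Adgre1 and Cd3e were at 0 in every library, while Cd68 had 42 counts in rescue, 55 in KO and 22 in WT. Endothelial markers summed to 11 counts in rescue, 8 in KO and 18 in WT, mostly Tek, with Pecam1 at 0, and adipocyte markers to 4 in rescue, 5 in KO and 0 in WT. C2C12 is a cell line, so counts of these markers do not show that cells of those types were present. The part of cell composition in the differences below was not tested. In bulk RNA, fewer cells of a type and less RNA per cell cannot be told apart.

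Most potassium channel genes had few or no reads in these differentiated cells. Of the 92 genes, 42 had 0 counts in every library and 32 reached between 1 and 19 counts. A count of 0 leaves room for up to 3 counts, or at most 0.218 CPM (counts scaled to library size). Voltage-gated pore subunits supplied 6 described genes of 30, tandem-pore leak subunits 4 of 14, calcium- and sodium-activated subunits 3 of 8, inward rectifiers 2 of 15, auxiliary subunits 2 of 15 and modifier subunits 1 of 10.

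**Figure D1:**
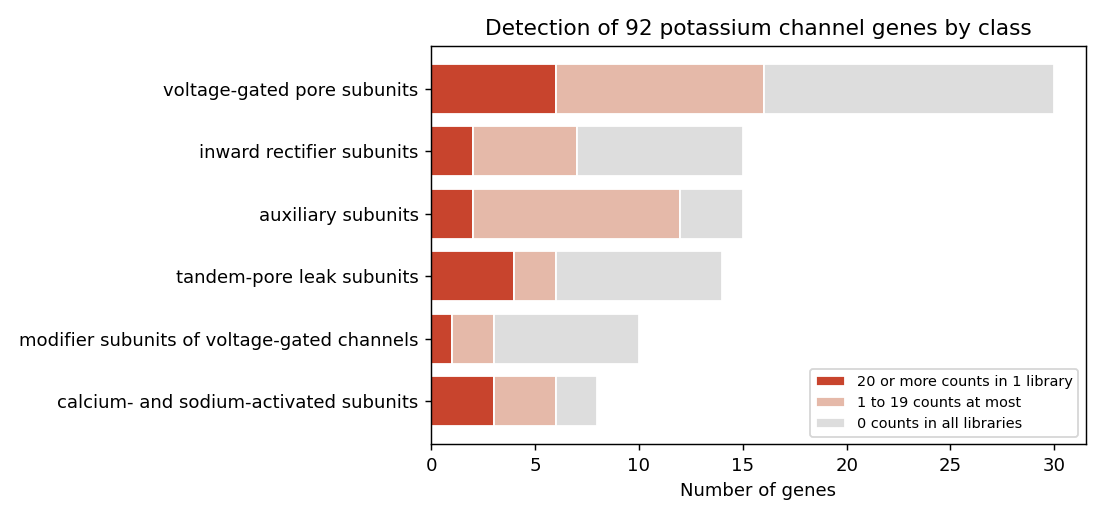
Number of genes (horizontal axis) in each class of potassium channel subunit, split by the highest raw count in any of the 3 libraries. Of 92 genes, 18 reached 20 or more counts, 32 reached 1 to 19 and 42 had 0 counts throughout.

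Several channels known from adult muscle were among the genes barely read. Kcnj11, the pore of the ATP-sensitive channel, had 0 counts in rescue, 1 in KO and 0 in WT. Kcnj8, the other pore gene of that channel type, had 0 counts in every library. Kcnma1, the large-conductance calcium-activated channel, had 1 count in rescue, 1 in KO and 3 in WT. Kcna7, a shaker-type channel of muscle and heart, had 5 counts in rescue, 4 in KO and 2 in WT. Kcnj12, an inward rectifier of muscle, had 1 count in each library. Kcna5 had 1 count, in WT, and Kcnh1, the ether-a-go-go channel, Kcnq5 and Kcnc4 had none.

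The potassium channel genes together had more reads in both libraries of KO origin than in WT. The sum over all 92 genes was 2225 counts in rescue, 2240 in KO and 1466 in WT. This made KO 1.55-fold higher than WT (log2 ratio 0.64, 95% counting interval 0.54 to 0.73). Much of the difference came from a few genes, among them Kcnj15 with 30.4% of the 774 additional counts in KO. Without it the sum was 2059 counts in rescue, 2001 in KO and 1462 in WT, and KO was 1.39-fold higher than WT (log2 ratio 0.48, interval 0.38 to 0.58). Ratios throughout are scaled by library size with 0.5 added to each count, and the intervals are exact and cover counting error only.

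**Figure D2:**
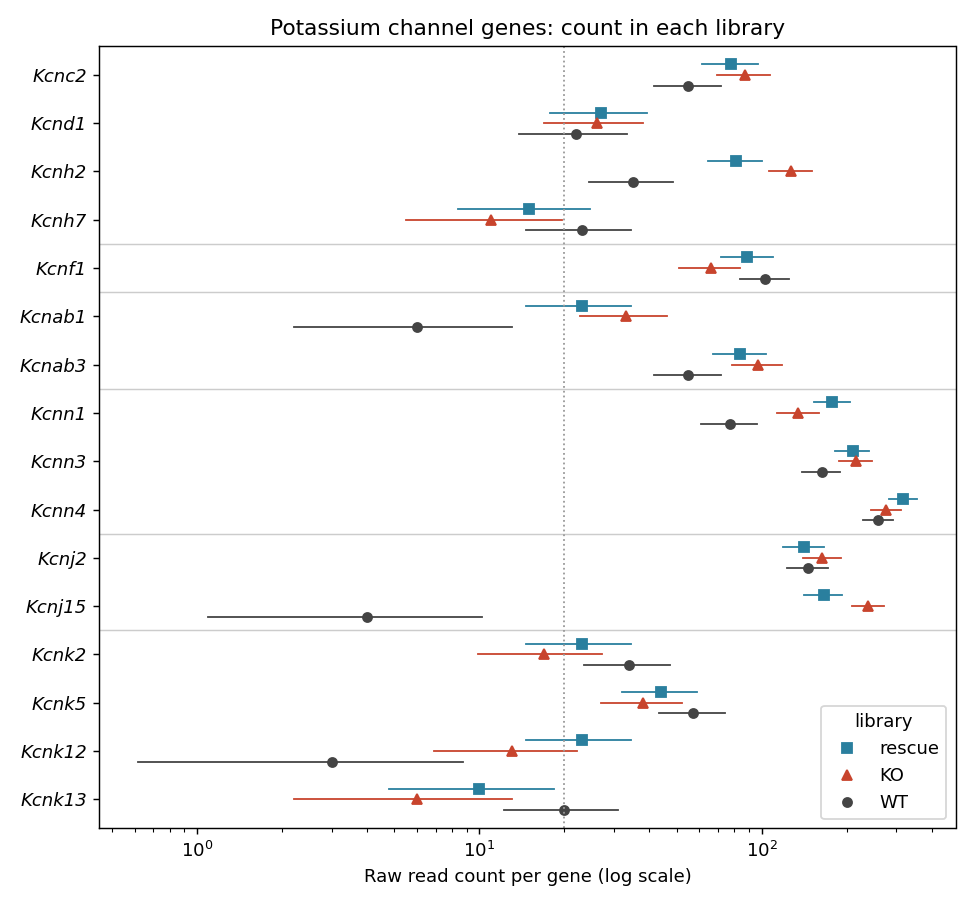
Raw read count (horizontal axis, log scale) of 16 potassium channel genes in rescue (squares), KO (triangles) and WT (circles), with exact Poisson 95% counting intervals as bars and the limit of 20 counts dotted. Kcnj15, Kcnab1 and Kcnh2 have WT points far left of those of rescue and KO, while Kcnj2 and Kcnn4 have all points close together.

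In KO against WT, 5 of the 18 described genes were at least 2-fold higher, beside 5.25% of all 11837 genes that reached 20 counts. Kcnj15, Kcnab1, Kcnk12 and Kcnh2, which belong to 4 different channel classes, were among them. At least 2-fold lower were Kcnk13 and Kcnh7, 2 of 18, beside 4.22% of all such genes. Low-count genes passed 2-fold more often: among the 6203 genes within the count range of the potassium channel genes, the shares were 7.87% higher and 6.79% lower. A counting interval entirely past 2-fold was found for 4 of 18, Kcnj15, Kcnab1 and Kcnh2 among them, beside 2.75% of all genes on the higher side, and no gene had one on the lower side, beside 2.42% of all genes. Of the 7 genes past 2-fold, all but Kcnh2 reached 20 counts in some libraries only, so that the limit of 20 counts itself favoured genes that differ. With that reservation, the log2 ratio was above 0 for 13 of the 18 genes, beside 49.7% of all genes, and the median log2 ratio of the 18 genes was 0.56, beside -0.0025 over all genes that reached 20 counts.

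**Figure D3:**
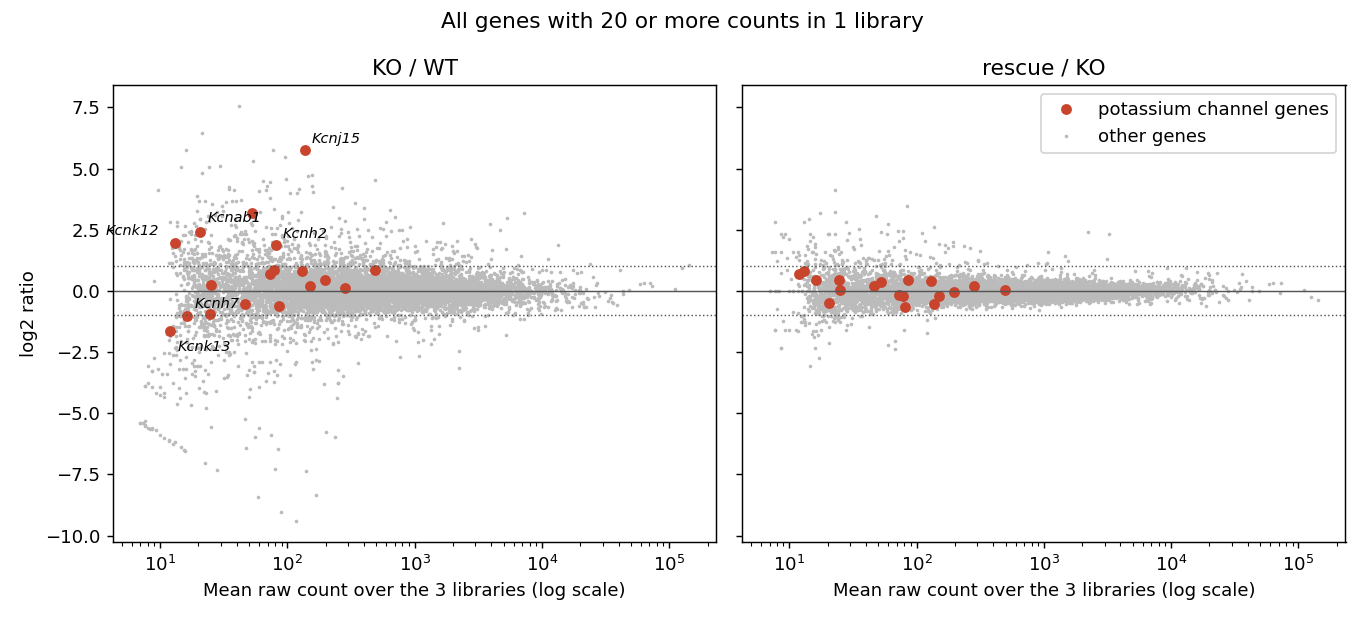
Log2 ratio (vertical axis) of KO over WT (left) and rescue over KO (right) against the mean raw count (horizontal axis, log scale) for the 11837 genes with 20 or more counts in 1 library, with the 18 potassium channel genes in red and dotted lines at 2-fold. In KO over WT 7 potassium channel genes lie beyond 2-fold, 6 of them named, while in rescue over KO none does.

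Transcript length moved with this comparison. The 18 genes had a median row length of 5217 bases, beside 3320 bases over all genes that reached 20 counts. In KO against WT the log2 ratio was higher by 0.11 for each doubling of length, and in rescue against KO it changed by -0.12. With that trend removed, the median of the 18 genes was 0.42 and the count of genes past 2-fold was unchanged at 5 higher and 2 lower.

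Among the inward rectifiers, Kcnj15 stood far from WT and Kcnj2 did not. Kcnj15, an inward rectifier known from kidney tubules, had 166 counts in rescue, 239 in KO and 4 in WT. Both libraries of KO origin were high and WT was close to the limit of detection. KO was 54.2-fold higher than WT (log2 ratio 5.76, interval 4.55 to 7.81). The difference of rescue from WT was 37.7-fold, with a log2 ratio of 5.24 (interval 4.02 to 7.30). Rescue was 1.44-fold lower than KO (log2 ratio -0.52, interval -0.82 to -0.23). Kcnj2, the classical inward rectifier of skeletal and heart muscle that holds the resting potential, had 141 counts in rescue, 164 in KO and 146 in WT. Its log2 ratio of KO against WT was 0.19 (interval -0.14 to 0.52), and the interval of each comparison of Kcnj2 included 0. The other 13 inward rectifier genes summed to 9 counts in rescue, 9 in KO and 4 in WT.

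The deposited rows of Kcnj15 fell into a long and a short set. The 12 long rows, of 5020 to 5222 bases, had 164 to 166 counts in rescue, 238 to 239 in KO and 4 in WT. The 11 short rows, of 1879 to 2383 bases, had 54 to 60 counts in rescue, 97 to 107 in KO and 0 in WT. None of the 4 WT reads was counted in a short row. The rows of a gene share reads, so these sets are no separate measurements, and the same high libraries were seen in both.

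**Figure D4:**
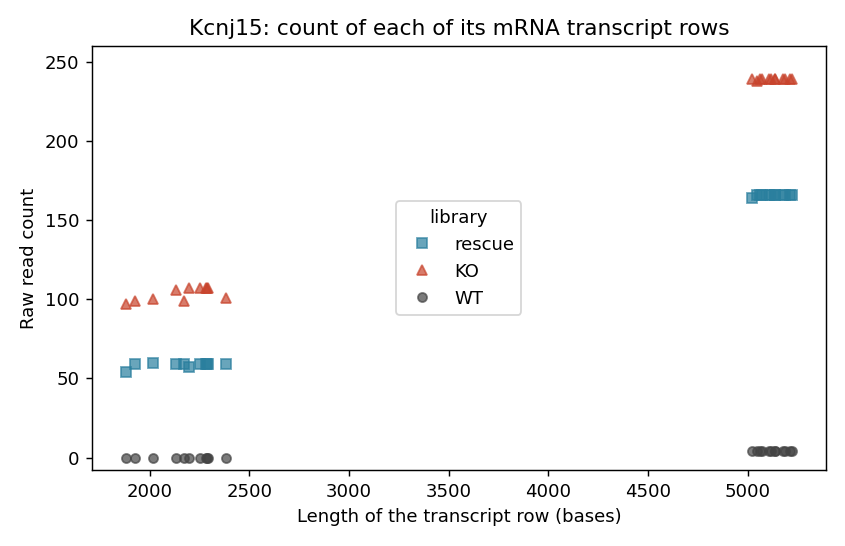
Raw read count (vertical axis) of each of the 23 mRNA rows of Kcnj15 against the length of the row in bases (horizontal axis), in rescue (squares), KO (triangles) and WT (circles). KO lies above rescue in every row, and WT lies between 0 and 4 counts.

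Promoter sequences are shown for Kcnj15 and Kcnh2, which had the most counts in KO among the named genes at least 2-fold higher in KO than in WT, and for the first of the 2 starts of Kcnn1, which held the most CAGCTG matches. They are from RefSeq (build GRCm38.p6, while the counts were made on GRCm39), run 5′ to 3′ from 250 bases before to 50 bases after the start, and were found for 14 of the 18 genes. Kcnab3 and Kcnd1 were among the others. Capitals mark CAGCTG, the E-box core favoured by the muscle factors MyoD and myogenin, TGATGNAA, the core of the element bound by ATF4 with its partners, and TATAAA, each searched on both strands. Where motifs overlap their capitals run together.
Kcnj15 (chr16:95257308-95257607, plus strand): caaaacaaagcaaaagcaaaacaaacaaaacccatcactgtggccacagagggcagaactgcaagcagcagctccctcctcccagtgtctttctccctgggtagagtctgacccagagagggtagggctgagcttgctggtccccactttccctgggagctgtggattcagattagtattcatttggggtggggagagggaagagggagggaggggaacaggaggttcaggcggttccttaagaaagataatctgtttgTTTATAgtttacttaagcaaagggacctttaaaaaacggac
Kcnh2 (chr5:24329542-24329841, minus strand): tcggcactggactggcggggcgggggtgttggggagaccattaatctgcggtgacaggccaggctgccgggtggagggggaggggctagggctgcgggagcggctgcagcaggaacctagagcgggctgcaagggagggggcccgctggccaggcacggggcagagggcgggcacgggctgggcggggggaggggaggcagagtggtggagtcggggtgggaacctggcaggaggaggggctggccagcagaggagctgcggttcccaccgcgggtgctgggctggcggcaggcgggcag
Kcnn1 (chr8:70863209-70863508, minus strand): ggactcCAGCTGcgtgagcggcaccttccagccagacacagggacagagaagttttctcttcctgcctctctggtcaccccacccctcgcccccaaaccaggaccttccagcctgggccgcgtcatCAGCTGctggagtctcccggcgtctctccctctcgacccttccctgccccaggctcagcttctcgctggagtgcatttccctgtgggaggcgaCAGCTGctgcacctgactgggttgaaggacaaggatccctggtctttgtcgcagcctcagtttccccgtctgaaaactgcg

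The Kcnj15 promoter held no CAGCTG and no TGATGNAA, and its one TATAAA match lay on the opposite strand, 9 bases after the start. The Kcnh2 promoter held none of the motifs and had a GC content of 74.3%, beside 49.7% for Kcnj15. The Kcnn1 promoter held CAGCTG 3 times, beginning 244, 124 and 31 bases before the start. Of all 32851 promoters of this length, 16.3% held CAGCTG at least once and 0.207% held it 3 or more times. The Kcnn1 promoter was shown because it held the most matches, so the share of 0.207% does not measure how unusual it is. TGATGNAA was present in 3.97% of all promoters and TATAAA in 13.6%. These shares are per promoter. The 14 genes had 23 promoters, of which 9 held CAGCTG, 1 TGATGNAA and 2 TATAAA. The promoters of Kcnc2 partly overlap, and the same CAGCTG was counted in several of them. By gene, 4 held CAGCTG (Kcnn1, Kcnc2, Kcnj2 and Kcnk2), 1, Kcnab1, held TGATGNAA and 2, Kcnj15 and Kcnab1, held TATAAA. A match describes these letters and is not a measured binding site.

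Among the voltage-gated pore subunits, Kcnh2 was more than 2-fold higher in KO than in WT and Kcnh7 had fewer reads in KO. Kcnh2, the ether-a-go-go-related channel that repolarises heart muscle, had 81 counts in rescue, 127 in KO and 35 in WT. The order was KO, then rescue, then WT. KO was 3.66-fold higher than WT (log2 ratio 1.87, interval 1.34 to 2.47). Rescue was 1.56-fold lower than KO (log2 ratio -0.64, interval -1.07 to -0.23) and 2.34-fold higher than WT (log2 ratio 1.23, interval 0.65 to 1.85). Of the 18 genes, Kcnh2 was the only one past 2-fold in KO against WT that reached 20 counts in all 3 libraries.

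The remaining voltage-gated genes differed less or rested on few reads. Kcnc2, a fast delayed rectifier of rapidly firing neurons, had 78 counts in rescue, 87 in KO and 55 in WT, and its log2 ratio of KO against WT was 0.68 (interval 0.18 to 1.20). Kcnd1, an A-type channel that inactivates quickly, had 27 counts in rescue, 26 in KO and 22 in WT, and each of its intervals included 0. Kcnh7, a relative of Kcnh2, had 15 counts in rescue, 11 in KO and 23 in WT. KO was 2.01-fold lower (log2 ratio -1.01), but the counting interval of -2.22 to 0.06 included 0. The row used for Kcnh7 was 23620 bases long, and the curated row of 3798 bases had 6 counts in rescue, 10 in KO and 13 in WT.

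Modifier and auxiliary subunits went in different directions. Kcnf1, which forms no channel alone and modifies other voltage-gated pores, had 89 counts in rescue, 66 in KO and 103 in WT. KO was 1.53-fold lower than WT (log2 ratio -0.61, interval -1.09 to -0.16). Rescue lay between KO and WT, and the intervals of rescue against KO and of rescue against WT included 0.

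Kcnab1 and Kcnab3 encode cytoplasmic beta subunits of shaker-type channels and have an oxidoreductase fold. Kcnab1 had 23 counts in rescue, 33 in KO and 6 in WT. KO was 5.25-fold higher than WT (log2 ratio 2.39, interval 1.21 to 4.03). For rescue the ratio to WT was 3.69-fold, or 1.88 on the log2 scale (interval 0.63 to 3.55). Kcnab3 had 84 counts in rescue, 97 in KO and 55 in WT, with log2 ratios of 0.84 (interval 0.35 to 1.35) for KO and 0.63 (interval 0.13 to 1.16) for rescue against WT. For both genes rescue and KO were high and WT was low. The 8 shaker-type pore genes of the Kcna family, to which these beta subunits bind, summed to 8 counts in rescue, 7 in KO and 5 in WT.

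The described calcium-activated genes had at least 77 counts in every library, and Kcnn1 differed most. Kcnn1, a small-conductance channel known from neurons, had 178 counts in rescue, 135 in KO and 77 in WT. Rescue was the highest and WT the lowest. Rescue was 2.35-fold higher than WT (log2 ratio 1.23, interval 0.84 to 1.64), and KO was 1.78-fold higher than WT (log2 ratio 0.83, interval 0.42 to 1.26). Rescue also exceeded KO, with a log2 ratio of 0.40 and an interval of 0.07 to 0.74.

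Kcnn3, the small-conductance channel found in developing and denervated muscle, had 210 counts in rescue, 216 in KO and 163 in WT. Its log2 ratio was 0.43 (interval 0.13 to 0.73) for KO and 0.39 (interval 0.09 to 0.70) for rescue against WT. Kcnn4, the intermediate-conductance channel of red blood cells, T cells and proliferating cells, had 317 counts in rescue, 276 in KO and 259 in WT. Its log2 ratio of KO against WT was 0.12 (interval -0.13 to 0.37), and that of rescue against WT was 0.32 (interval 0.08 to 0.56).

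Of the 4 described tandem-pore leak genes, Kcnk2, Kcnk5 and Kcnk13 had fewer reads in KO than in WT and Kcnk12 had more. Kcnk2, a leak channel opened by stretch and lipids, had 23 counts in rescue, 17 in KO and 34 in WT, with a log2 ratio of KO against WT of -0.95 (interval -1.91 to -0.09). Kcnk5, an acid-sensitive leak channel, had 44 counts in rescue, 38 in KO and 57 in WT, and its interval for KO against WT, -1.19 to 0.06, included 0. For both, WT was highest and KO lowest, and rescue lay between them.

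Kcnk12 and Kcnk13 encode close relatives, the halothane-inhibited leak channels, and went opposite ways on few reads. Kcnk12 had 23 counts in rescue, 13 in KO and 3 in WT, a log2 ratio of KO against WT of 1.97 (interval 0.28 to 4.59) and of rescue against WT of 2.78 (interval 1.24 to 5.35). Kcnk13 had 10 counts in rescue, 6 in KO and 20 in WT. KO was 3.10-fold lower than WT for Kcnk13 (log2 ratio -1.63, interval -3.32 to -0.34), and the interval of rescue against WT, -2.23 to 0.19, included 0. The difference between the ratios of these genes was not tested.

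**Figure D5:**
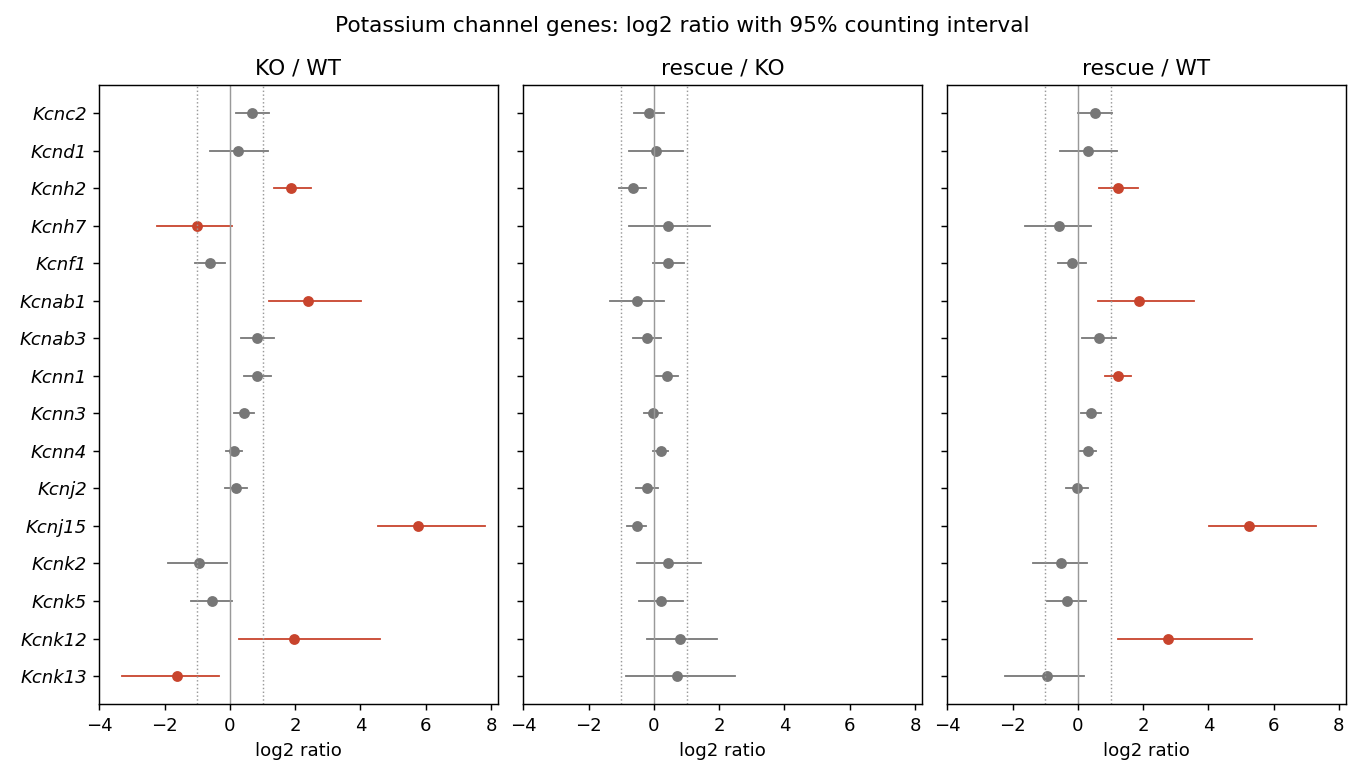
Log2 ratio (horizontal axis, points) with 95% counting interval (bars) of 16 potassium channel genes for KO over WT, rescue over KO and rescue over WT, in red where the ratio is 2-fold or more (dotted lines). Past 2-fold are 6 of these genes in KO over WT, none in rescue over KO and 5 in rescue over WT.

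In rescue against KO, none of the 18 potassium channel genes differed 2-fold, beside 1.28% of all genes higher and 0.515% lower. Within the count range of the potassium channel genes these shares were 2.26% and 0.983%. The log2 ratio was above 0 for 11 of the 18 genes, beside 49.6% of all genes. The log2 ratios ran from -0.64 for Kcnh2 to 0.80 for Kcnk12. The counting interval left out 0 for 3 genes, which were Kcnh2 and Kcnj15, lower in rescue, and Kcnn1, higher in rescue. The share of all genes with such an interval was not counted. The median log2 ratio of the 18 genes was 0.13, beside -0.0025 over all genes that reached 20 counts.

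In rescue against WT, 6 of the 18 genes were at least 2-fold higher, beside 4.57% of all genes, and none was 2-fold lower, beside 3.37%. Kcnj15, Kcnk12, Kcnab1, Kcnn1 and Kcnh2 were among them. A counting interval entirely past 2-fold was found for 3 genes, Kcnj15 and Kcnk12 among them, beside 2.34% of all genes on the higher side and 1.71% on the lower. Within the count range of the potassium channel genes, 7.14% were 2-fold higher and 5.50% lower. The log2 ratio was above 0 for 12 of the 18 genes, beside 50.1% of all genes. Kcnh7 and Kcnk13, both 2-fold lower in KO, had log2 ratios of -0.57 and -0.94 in rescue against WT, and both intervals included 0. The comparisons share libraries, so their counts of genes are not independent of each other.

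Levels were compared per transcript length, in the length-corrected TPM values deposited by the authors. Kcnn4 had 4.91 TPM in rescue (counting interval 4.38 to 5.48), 4.56 in KO (4.04 to 5.13) and 4.08 in WT (3.60 to 4.61). It stood above every other gene named here in each library, with intervals that did not meet theirs. The level depends on the row, since on its shortest row Kcnn4 had 6.04 TPM in rescue, 5.61 in KO and 5.04 in WT. The median over all genes that reached 20 counts was 5.21 TPM in rescue, 5.57 in KO and 5.35 in WT.

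Below Kcnn4, on the rows used, a different named gene came next in each library. It was Kcnn1 in rescue (1.27 TPM, interval 1.09 to 1.48), Kcnj15 in KO (1.82 TPM, interval 1.60 to 2.07) and Kcnj2 in WT (1.02 TPM, interval 0.860 to 1.20). Kcnab3 followed in every library, with 1.23 TPM in rescue, 1.52 in KO and 0.824 in WT (interval 0.621 to 1.07), and its interval met that of the gene above it each time. Kcnj15 had 1.19 TPM in rescue, 1.82 in KO and 0.0291 in WT. The order of the genes below Kcnn4 depended on the row used. On its shortest row, of 2833 bases, Kcnn1 had 2.34 TPM in rescue, 1.88 in KO and 1.02 in WT.

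For the read counts, the choice of transcript row mattered for a few genes. The lowest row held 36.4% of the reads of the highest for Kcnc2, 36.9% for Kcnj15, 51.3% for Kcnk12 and 57.1% for Kcnh7. For every other described gene with several rows it held 84.0% or more.

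Genes that work with these channels were described from lists of related genes. Of the 14 listed genes of the sodium pump, which restores the potassium gradient, 8 reached 20 counts, and in KO against WT 4 were at least 2-fold higher and 1 lower, beside 5.25% and 4.22% of all genes. Atp1b1, a beta subunit, had 2437 counts in rescue, 2190 in KO and 937 in WT (log2 ratio of KO against WT 1.25, interval 1.14 to 1.36). Fxyd6, a small regulator of the pump, had 80 counts in rescue, 23 in KO and 98 in WT (log2 ratio of KO against WT -2.04, interval -2.79 to -1.40). Atp1a4, the catalytic subunit known from sperm, had 10 counts in rescue, 23 in KO and 6 in WT (log2 ratio of KO against WT 1.88, interval 0.63 to 3.55). Atp1a4 reached 20 counts only in KO, the library where it was high, so the limit of 20 counts favoured a difference. In rescue against KO 1 gene of this list was 2-fold higher, Fxyd6, and 1 was lower, Atp1a4, beside 1.28% and 0.515% of all genes. In rescue against WT 3 were 2-fold higher and 0 lower, beside 4.57% and 3.37% of all genes.

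Of 16 listed partners of potassium channels, 3 reached 20 counts and 1, Dlg4, was 2-fold higher in KO than in WT, beside 5.25% of all genes. Dlg4, a scaffold that clusters shaker-type channels, had 617 counts in rescue, 664 in KO and 295 in WT. Amigo1, which associates with voltage-gated channels, had 362 counts in rescue, 311 in KO and 289 in WT, a log2 ratio of KO against WT of 0.13. Abcc8 and Abcc9, the sulfonylurea receptors that complete ATP-sensitive channels, stayed below 20 counts, as did their pore genes.

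Of 30 other listed ion channel genes, 16 reached 20 counts, and in KO against WT 1 was 2-fold higher and 1 lower. The shares over all genes were 5.25% and 4.22%. Scn4a, the sodium channel of skeletal muscle, had 883 counts in rescue, 893 in KO and 431 in WT (log2 ratio of KO against WT 1.08, interval 0.91 to 1.25). Scn2a, a sodium channel of neurons, had 0 counts in rescue, 1 in KO and 22 in WT (log2 ratio of KO against WT -3.88, interval -9.80 to -1.80). It reached 20 counts only in WT, and its counts in rescue and KO are too few to compare with each other. Apart from Scn2a, 1 gene of this list was 2-fold higher in rescue against KO, beside 1.28% of all genes. In rescue against WT 2 were higher, Scn4a among them, and 1 was lower, Scn2a, beside 4.57% and 3.37% of all genes. Of 17 genes for other potassium transport or intracellular potassium channels, 14 reached 20 counts and none was 2-fold different in any comparison. Among them Tmem38a, a potassium-permeable channel of the sarcoplasmic reticulum, had 2644 counts in rescue, 1833 in KO and 3062 in WT. Tmem38b, the related channel, had 998 counts in rescue, 768 in KO and 1391 in WT.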

How the data were processed

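Per the labels' protocols, TRIzol was used for RNA and a DNBSEQ-G400RS kit for the libraries. The submitters' processing notes name cutadapt 1.9.1, HISAT2 2.2.1, featureCounts 2.0.0 and build GRCm39 (mm39), with neither settings nor strand. The deposited raw read counts, per the file headers, stood in 139023 transcript rows per table. The RPKM deposited by the authors were not analysed further, and the TPM deposited by the authors (scaled to a fixed sum per table) were used for levels between genes.

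For each gene the mRNA row with the most reads, summed over libraries, gave the count. Counts were scaled with TMM factors (edgeR 4.0.16, R 4.3.3; 0.989 rescue, 1.00 KO, 1.01 WT) from all 46316 gene symbols, and log2 ratios were taken after adding 0.5. A 2-fold ratio was the call, for the 11837 genes with 20 or more counts in 1 library. Intervals are exact conditional (Clopper-Pearson) or Poisson 95% intervals (scipy 1.17.1). Counting error is all they cover, because the labels name no molecular identifiers and reads may repeat a molecule. The ratio and interval code was tested on simulated data.

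Genes given full values were those past 2-fold in any comparison with an interval that leaves out 0, the 5 highest TPM of a library, and a list of muscle channels. The genes and lists were chosen with earlier results of these data known. RefSeq GRCm38.p6 served for overlapping genes' names and promoters only. Some genes that the naming rule covers are not reported here.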

Additional observations from a re-analysis of the deposited data

How the results depend on the processing

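The count of 7 potassium channel genes past 2-fold in KO against WT became 2 (of 8 genes) with a limit of 100 counts, 25 (of 50) with no limit, and 4 where the whole counting interval had to lie beyond 2-fold. For rescue against WT, 6 became 3, 23 and 3 under the same settings. For rescue against KO, 0 became 17 with no limit on counts. Without the limit the median log2 ratio was 0.025 for KO against WT and 0.028 for rescue against WT. These shifts follow from which genes are counted and how strict the call is. The shares of all genes past 2-fold with a limit of 100 counts or with no limit were not counted. Kcnh7 was no longer past 2-fold in KO against WT with rows summed (-0.84), on its lowest row (-0.23) or with 5 added to each count (-0.78). With DESeq2 1.42.0 size factors, total counts, other rows, 5 added or the length trend removed, 323 of 324 gene ratios stayed within their counting intervals, the exception being Kcnj15 in rescue against KO on its lowest row (-0.84). A choice added after the data were seen, rows of all RNA types, gave the same counts of genes. No paired analysis was possible because each group had 1 library, and no library could be left out. Depth limits the genes with few reads, whose counting intervals are wide.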

Other observations

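Beside the protein-coding genes, Kcnq1ot1, the imprinted antisense RNA of the Kcnq1 locus, had 162 counts in rescue, 192 in KO and 185 in WT. Kcnq1 itself had 0 counts in rescue, 1 in KO and 1 in WT.

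Kcnc1, a fast delayed rectifier named after its values were seen, had 0 counts in rescue, 1 in KO and 12 in WT. Its log2 ratio of KO against WT was -3.03 (interval -8.98 to -0.80). With 3 counts taken in place of the 0 in rescue, rescue was 3.92-fold lower than WT. That ratio leaves out the counting error of the WT count.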
